A study of Mus musculus with 8 samples.

Results

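The comparison of Tfap2c-/- with control primordial germ cell-like cells (PGCLCs) rests on 4 of the 8 arrays of the series, namely the 2 arrays labelled KO PGC and the 2 labelled Ctrl PGC. PGCLCs are cells that mouse embryonic stem cells (ESCs) give rise to in culture, by way of epiblast-like cells, in a medium with BMP4, BMP8b, SCF, LIF and EGF, and that resemble early germ cells. All cells carried the Blimp1mVenus reporter and came from ESC lines in which both Tfap2c alleles are flanked by loxP sites. The control cells were the parental Tfap2c flox/flox lines, and the Tfap2c-/- cells were derived from these by transient expression of Cre. PGCLCs of both genotypes were sorted for Blimp1mVenus, so that both groups had been selected for activity of the reporter and only cells that turned it on were measured. The other 4 arrays hold 2 control and 2 Tfap2c-/- ESC samples grown in 2i and LIF, and were fitted together with the PGCLCs for the estimate of the spread. The study profiled 2 flox/flox lines and the Tfap2c-/- cells derived from each. The labels number the samples 1 and 2 in each group but do not tie the numbers to cell lines. The samples were therefore not paired. The tests measure the spread between these samples, which may include a difference between lines.

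TFAP2C is a transcription factor of the AP-2 family that binds GC-rich palindromes in DNA. In the mouse embryo it acts with PRDM1 (BLIMP1) and PRDM14 in the founder cells of the germline, which switch off the programme of somatic differentiation, keep pluripotency genes on and activate germ cell genes. The epiblast from which they arise passes from a naive state, resembling ESCs in 2i, to a primed state in which lineage signals such as NODAL, FGF and WNT act.

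The control PGCLCs carried the markers of the labelled cell type. Of 9 PGC markers 8 were measured, and their mean level was 9.05 and 9.29 on the 2 control arrays, 7.83 and 7.85 on the 2 Tfap2c-/- arrays and 7.10 to 7.68 on the ESC arrays, on the log2 scale of the deposited values. On each ESC array 7 or 8 of the 8 were also above 5, so that they set PGCLCs apart by level and not by presence. Markers of mesoderm, primitive endoderm, trophoblast, neural tissue, blood, endothelium and fibroblasts had mean levels of 2.95 to 4.28 on the 4 PGCLC arrays, and none of these markers passed the test. Markers of naive ESCs averaged 8.72 and 8.27 in control and 9.15 and 9.54 in Tfap2c-/- PGCLCs, against 9.41 to 9.63 in ESCs. Of these 8 markers 1 was called higher. Primed epiblast markers averaged 5.17 and 5.07 in control and 6.37 and 6.17 in Tfap2c-/- PGCLCs, and 2 of 6 were called higher. Tfap2c itself was measured at 9.84 and 10.29 in control PGCLCs and at 8.52 and 8.85 in Tfap2c-/- PGCLCs. The 2 groups did not overlap, but the difference of −1.38 did not pass the test (adjusted p = 0.150, limma). The spread in this test includes that of the ESC arrays, at 7.88 and 9.14 in control and 7.28 and 6.47 in Tfap2c-/- ESCs. Whether the probe sets lie within the deleted part is not given, so these levels cannot show how much intact transcript remained. The study reports the deletion from PCR genotyping of the ESC lines. Its RT-PCR found no signal in Tfap2c-/- PGCLCs, although the legend does not name the gene. Control PGCLC 2 stood apart in its control probes. Its level of Gapdh was higher by 0.949 at the 3′ end of the transcript than at the 5′ end, against 0.305 to 0.523 on the other arrays, and its poly-A spike-in controls averaged 7.91, against 5.42 to 7.44.

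In Tfap2c-/- PGCLCs 235 genes were higher and 327 were lower than in control PGCLCs among 18193 genes tested, which is 3.09% of all genes (1.29% higher and 1.80% lower). A gene counts as called when its adjusted p in limma is under 0.05, and on all 562 called genes both knockout arrays lay beyond both control arrays. The genes called lower had a median level of 7.17 in control and 5.37 in Tfap2c-/- PGCLCs, and those called higher 5.76 and 7.45. The median difference was −1.30 among the genes called lower, 1.46 among those called higher and −0.04 over all genes tested. Differences above 1, a doubling of the level, were found for 248 of the lower and 193 of the higher genes, and differences above 3 for 24 and 11. By size alone, 354 genes (1.95% of all) differed by more than 1.5, of which 246 also passed limma. Fewer cells expressing a gene and less RNA per cell cannot be told apart in these bulk samples.

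**Figure D1:**
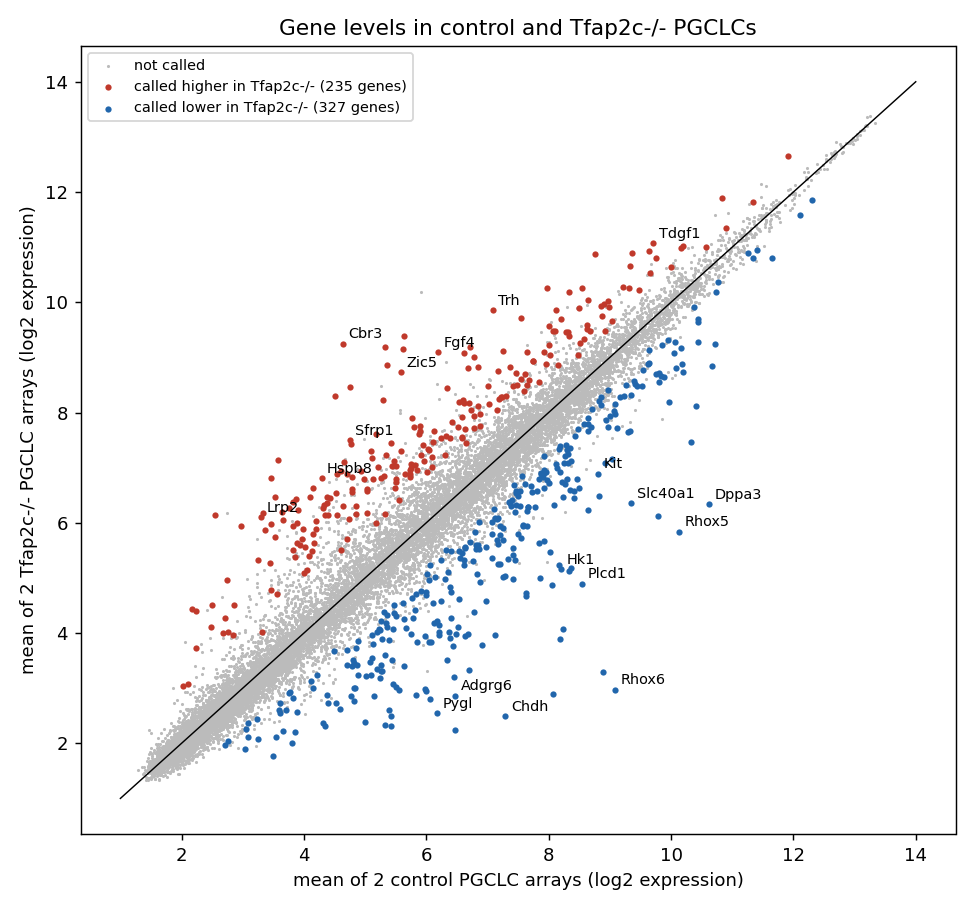
Mean log2 expression of each gene on the 2 control PGCLC arrays (x axis) and the 2 Tfap2c-/- PGCLC arrays (y axis), with the line of equal levels. The 235 genes called higher lie above the line and the 327 called lower lie below it, and the lower genes reach farther from it, with 24 differences above 3 against 11.

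Genes measured by several probe sets moved mostly in the same direction on the probe sets not used for the test, which measure the same RNA. For the genes called lower, 316 of 353 further probe sets (89.5%) were also lower, against 51.8% of the 16752 further probe sets of all genes. For the genes called higher, 292 of 330 further probe sets (88.5%) were higher, against 48.1% of those of all genes. The further probe sets had smaller differences, with medians of −0.48 and 0.75. All further probe sets had the direction of the tested one for 159 of 192 such lower genes and 116 of 151 such higher genes. Among the called genes described below, a further probe set of the opposite sign was found for Lrp2, Bcar3, Gpm6b, Mllt11, Ntn1, Ptch1, Laptm5 and Srxn1. The same held for Fermt3, Afap1 and Erbb3. These opposite differences ran from −0.21 (Ntn1) to 0.11 (Afap1).

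The number of calls depended on single arrays. Without control PGCLC 2 the fit called 87 genes, without Tfap2c-/- PGCLC 2 98, without Tfap2c-/- PGCLC 1 230 and without control PGCLC 1 395, and in these fits the remaining array of the group is assumed to vary like the other groups. The sign of all 562 differences stayed the same in each, which is bound to hold where both knockout arrays lie beyond both controls. Among the genes called higher, control PGCLC 1 was above control PGCLC 2 for 203 of 235, by a median of 0.36, whereas over all genes this held for 52.2%. Among the genes called lower, control PGCLC 2 was above control PGCLC 1 for 223 of 327. Control PGCLC 2, the array with the larger 3′ to 5′ difference, thus lay farther from the knockout arrays for most called genes. A set of 61 genes, 48 lower and 13 higher, was called in all 8 fits that left out 1 array, and these are named as such below. Of 49 lists of genes by role 42 held called genes, 15 of these held none when control PGCLC 2 was left out, and 19 held none that was called in all 8 fits.

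**Figure D2:**
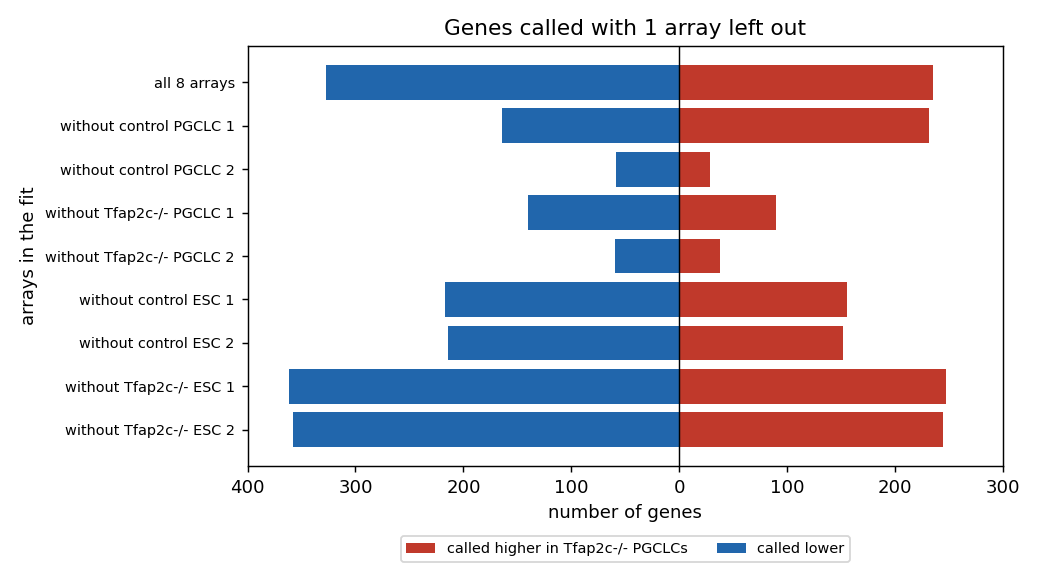
Number of genes called higher (right) and lower (left) in Tfap2c-/- PGCLCs (x axis) when all 8 arrays were fitted and when each array was left out in turn (y axis). The bars are shortest without control PGCLC 2 (28 higher and 59 lower) and without Tfap2c-/- PGCLC 2 (38 higher and 60 lower), against 235 and 327 with all arrays.

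The 10 largest decreases included Rhox6, Rhox9, BC048679, Chdh, Rhox5, Gpat3, Dppa3 and Calcoco2, and the 15 that followed ran from −3.66 to −2.99. Enzymes and carriers of metabolism made up part of these. Pygl, the glycogen phosphorylase of liver, was at 6.11 and 6.23 in control and at 2.48 and 2.62 in Tfap2c-/- PGCLCs, a difference of −3.62 (SE 0.33, adjusted p = 0.00281, limma) with both knockout arrays below the ESC range of 2.78 to 4.22. Hk1, which encodes a hexokinase and catalyses the first step of glucose use, was at 8.06 and 8.35 in control and at 5.02 and 5.29 in Tfap2c-/- PGCLCs (difference −3.05, SE 0.23, adjusted p = 0.00147, limma). Unlike Pygl it was high in ESCs, at 7.16 to 7.73, so that the Tfap2c-/- PGCLCs were the only group with a low level. Slc7a9, the light chain of a transporter for cystine and basic amino acids, was at 5.25 and 5.59 in control and 2.41 and 2.22 in Tfap2c-/- PGCLCs. Slc40a1 (ferroportin), the exporter of iron from cells, was at 9.37 and 9.33 in control PGCLCs and at 7.16 and 5.56 in Tfap2c-/- PGCLCs, and its 2 knockout arrays differed more from each other than for the genes above. It was near the bottom of the scale in ESCs, at 2.64 to 3.92.

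Other genes of these ranks act in signalling, adhesion and the nervous system. Plcd1, a phospholipase C that releases inositol trisphosphate, was at 8.33 and 8.78 in control and at 4.67 and 5.12 in Tfap2c-/- PGCLCs (difference −3.66, SE 0.34, adjusted p = 0.00298, limma). Adgrg6, an adhesion G protein-coupled receptor needed for myelination by Schwann cells, was at 6.33 and 6.62 in control and at 3.03 and 2.70 in Tfap2c-/- PGCLCs. Fermt3 (kindlin 3), which activates integrins in blood cells, was at 6.6 and 6.31 and at 3.74 and 2.64. No array of one group overlapped the other for any of these genes. Mbp, which encodes myelin basic protein, was at 8.00 and 8.09 in control PGCLCs, at 5.21 and 4.54 in Tfap2c-/- PGCLCs and at 3.24 to 4.24 in ESCs. Dner, a transmembrane ligand of Notch in neurons, fell by 3.03, the polyadenylation factor gene Cpeb1, which acts on stored mRNA in oocytes, fell by 3.38, and the sialyltransferase gene St6galnac2 fell by 3.13. Kctd15, whose BTB-domain protein is known to inhibit AP-2 factors in the neural crest, was at 8.25 and 8.41 in control PGCLCs and at 5.41 and 4.84 in Tfap2c-/- PGCLCs (difference −3.20, SE 0.27, adjusted p = 0.00230, limma). Of these 15 genes 9 were called in all 8 fits that left out 1 array, namely Plcd1, Pygl, Adgrg6, Kctd15, Urgcp, Ttyh2, St6galnac2, Slc7a9 and Hk1.

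**Figure D3:**
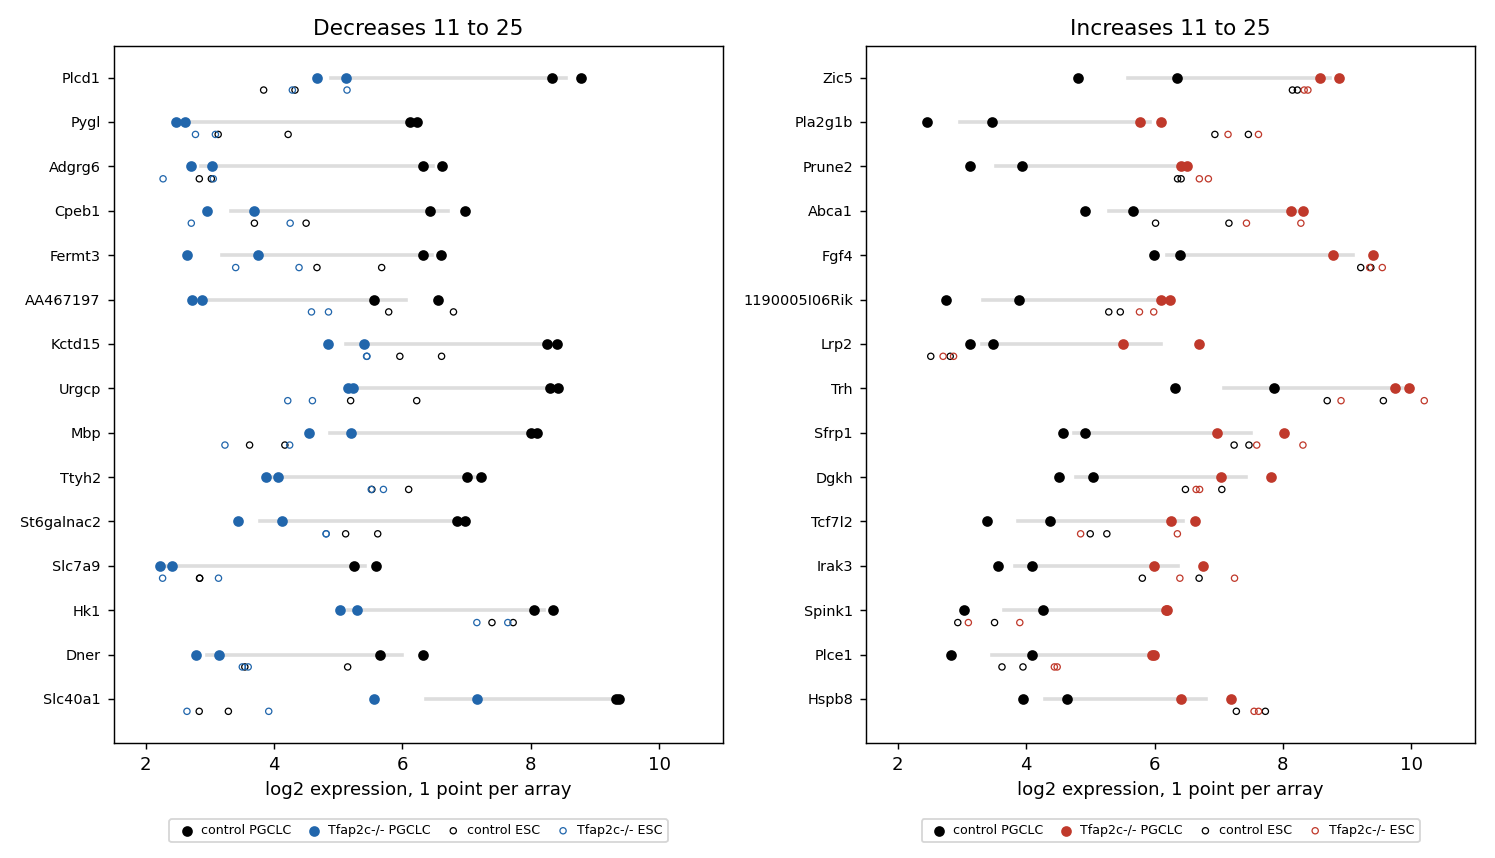
Log2 expression (x axis) on each array of the 15 decreases (left) and 15 increases (right) that follow the 10 largest (y axis), with filled points for PGCLCs and open points below them for ESCs. Control and Tfap2c-/- PGCLC points do not overlap for any of the 30 genes, and the 2 control PGCLC points lie far apart for some increases, such as those of Zic5 (6.35 and 4.81) and Trh (7.86 and 6.32).

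The increases of ranks 11 to 25 ran from 2.52 to 3.14, and several encode secreted or signalling proteins. Fgf4, the FGF that ESCs secrete, was at 6.39 and 6.0 in control and at 8.78 and 9.41 in Tfap2c-/- PGCLCs (difference 2.90, SE 0.23, adjusted p = 0.00170, limma), and at 9.21 to 9.55 in ESCs. Sfrp1, a secreted inhibitor of WNT, was at 4.58 and 4.92 in control and at 6.98 and 8.01 in Tfap2c-/- PGCLCs (difference 2.75, SE 0.37, adjusted p = 0.0112, limma), again near the ESC range of 7.24 to 8.31. Lrp2 (megalin), an endocytic receptor of absorptive epithelia, was at 3.49 and 3.12 in control PGCLCs, at 6.70 and 5.51 in Tfap2c-/- PGCLCs and at 2.51 to 2.87 in ESCs. The levels of Fgf4 and Sfrp1 in Tfap2c-/- PGCLCs were thus near those of ESCs. Lrp2, on its tested probe set, was highest in Tfap2c-/- PGCLCs among the 4 groups. Spink1, an inhibitor of trypsin, likewise was at 6.20 and 6.18 in Tfap2c-/- PGCLCs, at 4.26 and 3.04 in control PGCLCs and at 2.93 to 3.90 in ESCs. Zic5, a zinc finger transcription factor of the epiblast and neural plate, was at 6.35 and 4.81 in control and at 8.58 and 8.88 in Tfap2c-/- PGCLCs. The 2 control arrays of Zic5 differed by more than the 2 knockout arrays, as they did for Trh, which encodes thyrotropin-releasing hormone and was at 7.86 and 6.32 in control and at 9.97 and 9.74 in Tfap2c-/- PGCLCs.

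Further increases were those of Abca1, the exporter of cholesterol to lipoproteins (2.92), the phospholipase genes Pla2g1b (2.97) and Plce1 (2.52), the diacylglycerol kinase gene Dgkh (2.65), the WNT effector gene Tcf7l2 (2.56), Irak3, which restrains signalling by Toll-like receptors (2.54), the small heat shock protein gene Hspb8 (2.52), Prune2 (2.93) and 1190005I06Rik (2.84). Of the 15 increases 2, those of Fgf4 and Prune2, were called in all 8 fits that left out 1 array, against 9 of the 15 decreases. Among the 10 largest increases these were Cbr3, Stmn2, Laptm5 and Eras. The increase of Laptm5 rests on the probe set with the highest level, and the brightest probe set designed for Laptm5 alone gave a difference of −0.07.

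For 22 genes the mean level went from above 6 in control to under 4 in Tfap2c-/- PGCLCs, and for 12 genes from under 4 to above 6, where the median of each array lies near 3.5. The first set held Rhox6, Rhox9, the choline dehydrogenase gene Chdh, Pygl, Adgrg6, Cpeb1, Fermt3 and the ceramide kinase gene Cerk (6.22 and 6.73 against 4.0 and 3.99). Aifm3, a mitochondrial apoptosis gene, was at 6.33 and 6.08 against 4.01 and 3.90, and Nrk, a kinase gene of the placenta, at 6.02 and 6.66 against 3.96 and 3.08. The second set held Nefl, the light neurofilament gene (3.76 and 3.40 against 7.68 and 6.6), and Slc6a15, a carrier of neutral amino acids (2.91 and 2.18 against 6.28 and 6.0). Lrp2, Spink1, Irak3, Tcf7l2, Prune2 and Shisa2 were also in it.

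Genes of early germ cells were lower where they differed. Of 13 measured genes of PGC specification and early germ cells 4 were lower and 0 higher (30.8% called, against 3.09% of all genes). Their median difference was −0.66, against −0.04 over all genes. Kit, the receptor for SCF, was at 8.56 and 9.05 in control and at 6.84 and 6.94 in Tfap2c-/- PGCLCs, a difference of −1.91 (SE 0.20, adjusted p = 0.00513, limma). Cxcr4, the chemokine receptor of migrating PGCs, was at 4.36 and 4.28 against 2.51 and 2.24, a difference of −1.94 (SE 0.15, adjusted p = 0.00170, limma). Kit and Cxcr4 were called with any array left out. Dppa3 (Stella) was at 10.37 and 10.87 against 6.28 and 6.40, and lost its call whichever PGCLC array was left out. Alpl, the alkaline phosphatase by which PGCs are stained, was at 7.58 and 7.88 against 6.72 and 6.40. It lost its call in most of the fits without a PGCLC array. Prdm1 was at 8.93 and 8.98 in control and at 8.08 and 8.05 in Tfap2c-/- PGCLCs, and Prdm14 at 8.43 and 8.65 and at 7.41 and 8.05. Neither passed the test (adjusted p = 0.256 for Prdm1 and 0.0995 for Prdm14, limma), although their arrays did not overlap, and cells had been sorted on the reporter of Prdm1. The spread in this test is taken over the ESC arrays as well. Those of Dppa3 were at 5.27 and 7.88 in control and at 4.62 and 6.55 in Tfap2c-/- ESCs. Within each genotype they lay farther apart than its PGCLC arrays.

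The Rhox genes, homeobox genes of the X chromosome that act in germline and placenta, had the largest share of calls, with 3 of 4 measured genes lower. Rhox6 was at 9.08 and 9.09 against 3.21 and 2.73, Rhox9 at 8.78 and 8.99 against 3.23 and 3.34, and Rhox5 at 10.23 and 10.03 against 5.90 and 5.77. All of them were called with any array left out. Rhox5 was also low in Tfap2c-/- ESCs, at 4.72 and 5.0 against 8.15 and 9.66 in control ESCs, whereas Rhox6 and Rhox9 were at 2.70 to 4.07 on all ESC arrays.

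Most genes of later germ cells were near the bottom of the scale in control PGCLCs. Their median level there was 3.54 and 3.32, against 8.93 and 9.05 for the genes of early germ cells and about 3.5 for the median of each array. Of 46 measured genes of later germ cells, meiosis and the piRNA pathway 3 were lower and 0 higher, with a median of −0.15 (6.52% called, against 3.09% of all genes). These were the cohesin subunit gene Stag3 (−1.75), the synaptonemal complex gene Syce2 (−1.27) and the piRNA pathway gene Tdrd12 (−0.99), and none of them was called in all fits that left out 1 array. Among 35 sperm and testis protein genes 4 were lower and 0 higher (11.4% called), with a median of −0.08. Efcab10 fell by 2.39, Spa17, a sperm surface protein gene, fell by 2.30, the transporter gene Slco4c1 fell by 2.19 and Septin4, which is needed for the sperm annulus, fell by 1.64, and all but Spa17 were called with any array left out. Dmrt1, a regulator of germ cells and testis, was at 7.88 and 8.08 in control and at 5.71 and 4.88 in Tfap2c-/- PGCLCs. With a difference of −2.68 it was among the largest that did not pass (adjusted p = 0.0882, limma), and Stk31 (−2.09) and Aurkc (−2.07) were not called either.

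**Figure D4:**
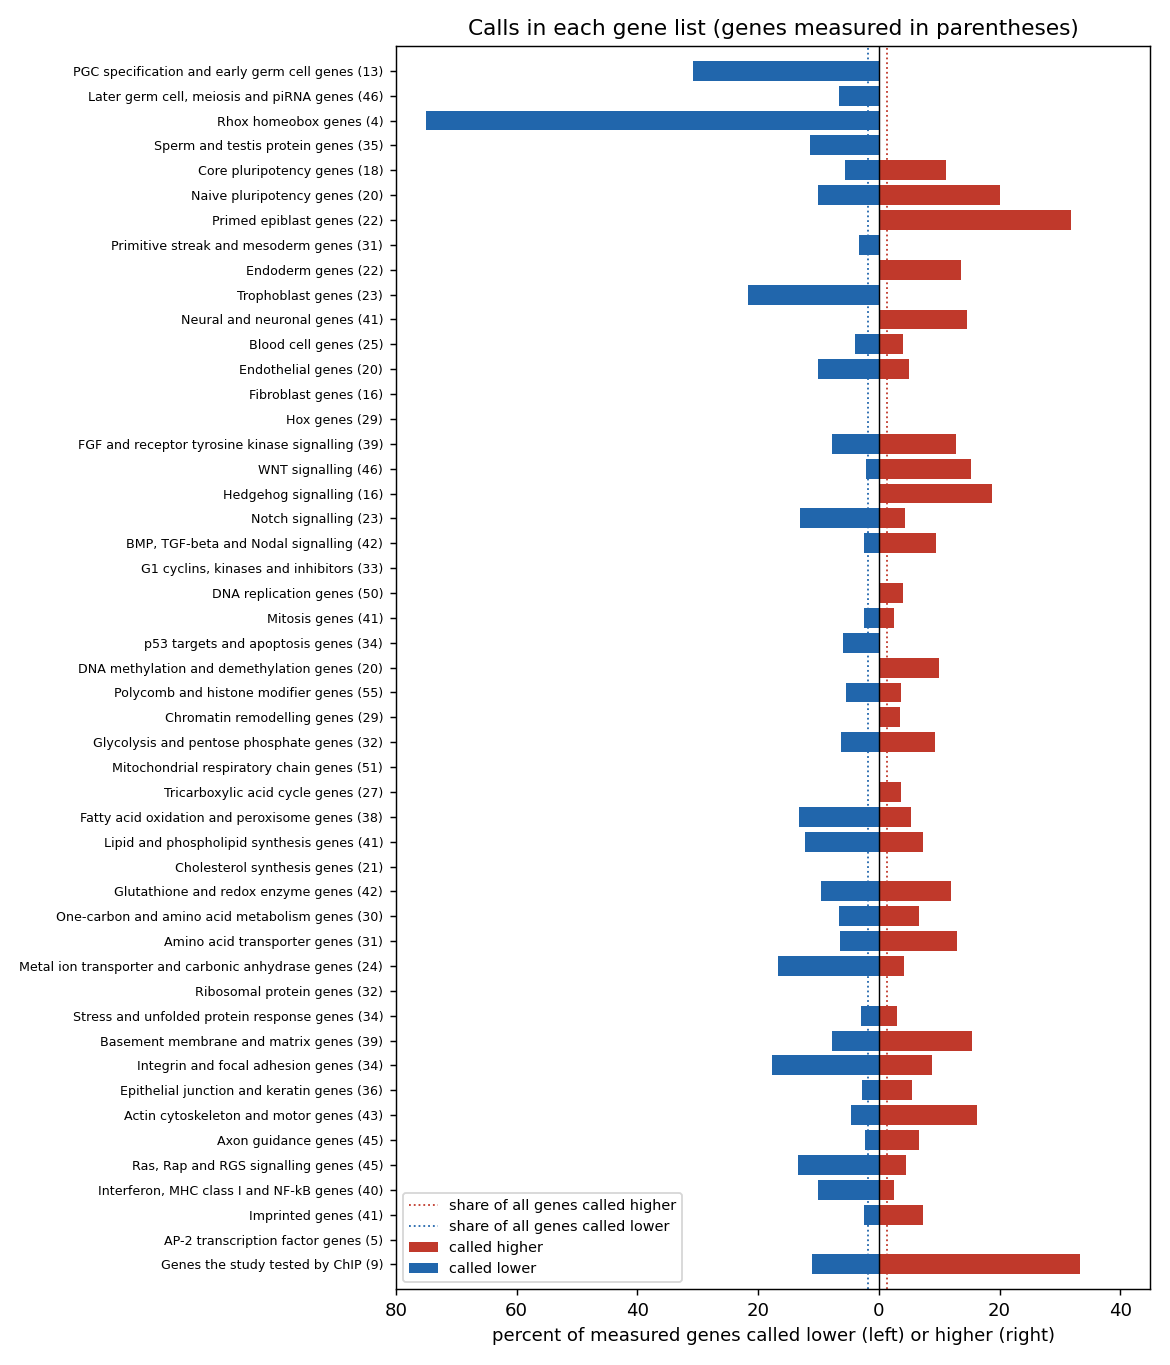
Share of the measured genes of each list (y axis, with their number) that were called lower (left) or higher (right) in Tfap2c-/- PGCLCs (x axis, percent), with dotted lines at the shares over all genes, 1.80% lower and 1.29% higher. The germ cell lists have calls to the left only, the primed epiblast list has calls to the right only, and lists of respiratory chain, ribosomal, cholesterol synthesis, Hox and G1 genes have none.

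Pluripotency genes of both states were called, and most calls were increases. Of the primed, naive and core lists 31.8%, 30.0% and 16.7% were called, against 3.09% of all genes. Of 22 measured primed epiblast genes 7 were higher and 0 lower, with a median difference of 1.06, against −0.04 over all genes. The 4 with the largest differences were Zic2 (5.77 and 3.74 against 8.21 and 8.73), Zic5, Fgf15 (4.13 and 3.52 against 5.91 and 5.97), the mouse FGF of the gut and of early neural tissue, and Sfrp2 (5.25 and 5.02 against 6.83 and 6.77). Lefty1, an inhibitor of NODAL, rose by 1.54, Nodal itself by 0.88 and Pou3f1, a POU factor of the epiblast, by 1.33. Fgf15 was at 3.43 to 3.70 and Sfrp2 at 3.30 to 4.10 in ESCs, so that the level in Tfap2c-/- PGCLCs lay above both control PGCLCs and ESCs, whereas Zic2 and Zic5 were also high in ESCs (6.27 to 8.39). Dnmt3b, the de novo DNA methyltransferase of the epiblast, was at 8.28 and 7.88 against 9.53 and 9.27 and did not pass the test (adjusted p = 0.0777, limma). Otx2 (1.26) was not called either. The 2 members with a negative difference were Sox3 (−0.50) and Fgf5 (−0.21), which the study used as an epiblast marker, and neither was called. Without control PGCLC 2 the list had 2 genes called higher and a median of 0.67, and Fgf15 was the 1 member called in all fits that left out 1 array.

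Of 20 measured naive pluripotency genes 4 were higher and 2 lower, with a median of 0.27, and 16 had a positive difference, as 20 of the 22 primed genes did. The naive list had 2 genes called higher and 0 lower without control PGCLC 2. Whether the naive and primed lists differ was not tested. Eras, the constitutively active Ras of ESCs, was at 5.96 and 5.27 in control and at 8.90 and 9.39 in Tfap2c-/- PGCLCs (difference 3.53, SE 0.36, adjusted p = 0.00455, limma), above its level of 6.57 to 7.44 in ESCs. Gbx2, a homeobox gene of naive cells, was at 4.06 and 4.14 against 6.35 and 6.57, and Klf4, a Kruppel-like factor of naive cells, at 6.91 and 6.65 against 8.52 and 9.48, below the 10.87 to 11.11 of ESCs. In the other direction, Sox15 was at 7.29 and 7.55 against 5.09 and 4.85 and Pecam1, a surface molecule of ESCs and endothelium, at 5.90 and 5.65 against 4.22 and 4.32. The list thus held genes that moved in opposite directions. In the core pluripotency list of 18 genes Tdgf1 (Cripto), the coreceptor of NODAL, rose by 1.36 and the repressor gene Tcf7l1 by 1.20. Tcf3, also in the list but the E2A gene and not Tcf7l1 under its older name, fell by 0.79. Pou5f1, at 11.26 and 11.28 against 11.43 and 11.61, Sox2, at 11.13 and 11.26 against 11.12 and 11.34, and Nanog, at 10.09 and 9.99 against 9.98 and 10.24, were not called.

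Components of several signalling pathways were among the called genes. From 11.9% (BMP, TGF-beta and Nodal) to 20.5% (FGF and receptor tyrosine kinase) of the genes of the signalling lists were called, against 3.09% of all genes. Of 39 genes of FGF and receptor tyrosine kinase signalling 5 were higher and 3 lower (median 0.05), and 5 of the 8 were called with any array left out. The ligand genes Fgf4 and Fgf15 rose and the receptor genes Erbb3, Kit and Fgfr2 fell, while the other receptor genes of the list were not called. Erbb3, a receptor for neuregulins, was at 8.80 and 8.85 against 6.57 and 6.40 (difference −2.34, SE 0.16, adjusted p = 0.00101, limma), and Fgfr2 fell by 1.84. The remaining increases were those of Eras, Fgf1 (1.13) and Spred1 (1.06), an inhibitor of the pathway.

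In WNT signalling 7 of 46 genes were higher and 1 was lower, with a median of 0.14. The increases held the secreted inhibitors Sfrp1 and Sfrp2, Shisa2, which retains receptors in the cell (4.26 and 3.54 against 6.16 and 6.32), the receptor gene Fzd7 (1.19), Lrp2 and the nuclear effectors Tcf7l2 (4.36 and 3.39 against 6.25 and 6.62) and Tcf7l1. The decrease was that of the ligand gene Wnt7b (−1.29). Most of these increases encode inhibitors or DNA-binding effectors and the list says nothing of pathway activity. Without control PGCLC 2 none of the list was called and its median was −0.08.

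Hedgehog signalling had 3 of 16 genes higher and 0 lower (median 0.14). Gli2, the activator of target genes, was at 6.40 and 4.33 against 8.27 and 9.44, with control arrays far apart, and Ptch1, the receptor and itself a target, at 8.14 and 8.01 against 9.01 and 9.94. Zic2 was the third. Of 23 Notch genes 3 were lower and 1 higher (median 0.18). The target gene Hey1 was at 7.63 and 8.07 against 5.20 and 4.79 (difference −2.85, SE 0.22, adjusted p = 0.00170, limma) and was called with any array left out. The ligand genes Dner and Dll3 (−1.38) were also lower, and the receptor gene Notch4 was higher (1.66). In BMP, TGF-beta and Nodal signalling 4 of 42 genes were higher and 1 lower (median 0.12). These were Nodal, Lefty1, Tdgf1 and the corepressor gene Tgif1 (7.72 and 7.01 against 8.78 and 8.88), whereas its relative Tgif2 was lower, at 9.17 and 9.41 against 7.63 and 7.66, and was called with any array left out. The 2 corepressors of the same family therefore moved in opposite directions.

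Of 45 genes of Ras, Rap and RGS signalling, a list that also holds phospholipase C and protein kinase C genes, 6 were lower and 2 higher, with a median of −0.03. Rassf5, a Ras effector that acts on integrins, was at 6.09 and 5.86 against 3.08 and 2.91 (difference −2.98, SE 0.21, adjusted p = 0.00110, limma), and the protein kinase C gene Prkch was at 6.52 and 7.44 against 4.66 and 4.51. Plcd1 fell and Plce1 rose, so that phospholipase C genes moved both ways. Rassf5, Plcd1 and Ralgds, the exchange factor of Ral (−2.02), were called with any array left out.

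Regulators of chromatin were called in both directions. Of 20 DNA methylation genes 2 were higher and 0 lower (10.0% called, against 3.09% of all genes), with a median of 0.26. Uhrf1, which brings the maintenance methyltransferase to replicated DNA, was at 8.69 and 8.29 against 9.84 and 9.95, and Zfp57, which protects methylation of imprints, at 4.81 and 4.88 against 6.05 and 6.54. Dnmt3l, the cofactor of de novo methylation, was at 6.51 and 4.01 in control PGCLCs and at 8.96 and 7.99 in Tfap2c-/- PGCLCs. Its difference of 3.22 did not pass the test (adjusted p = 0.0585, limma), and its control arrays lay far apart. Of 55 Polycomb and histone modifier genes 3 were lower and 2 higher (9.09% called, median 0.08). The Polycomb genes Pcgf5 (8.48 and 8.81 against 6.54 and 5.93) and Sfmbt2 (8.63 and 9.20 against 7.31 and 6.85) and the H3K4 reader gene Phf13 (−1.86) were lower, and Phf21a (1.15) and the demethylase gene Kdm2b (1.08) were higher. Among 29 chromatin remodelling genes Chd7 rose by 1.59, which is 3.45% of the list. Of the calls of these lists, that of Phf13 was the only 1 made without control PGCLC 2.

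Cell cycle genes were called about as often as all genes, of which 3.09% were called. Of 33 G1 cyclins, kinases and inhibitors 0 were called in limma and 10 had an unadjusted p under 0.05. The largest difference among them was that of the cyclin gene Ccnd1, at 7.0 and 5.36 in control and 8.37 and 8.66 in Tfap2c-/- PGCLCs (2.33, adjusted p = 0.0639, limma). The inhibitor gene Cdkn1a (p21) was at 7.77 and 6.91 against 8.35 and 7.96 and the kinase gene Cdk6 at 5.94 and 5.89 against 6.94 and 7.68, and neither passed (adjusted p = 0.185 and 0.200, limma). Among 50 DNA replication genes (4.0% called) Uhrf1 and the GINS subunit gene Gins2 (1.08) were higher, and among 41 mitosis genes (4.88% called) the kinase gene Nek2 fell by 0.97 and the spindle gene Psrc1 rose by 1.73. Of 34 p53 targets and apoptosis genes (5.88% called) 2 were lower, Aifm3 and the BH3-only gene Bik (5.36 and 5.17 against 4.27 and 4.15). The median of the list was 0.32.

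Metabolic genes were called in both directions. The lists of this and the next 2 paragraphs had from 13.3% (one-carbon and amino acid metabolism) to 21.4% (glutathione and redox enzymes) of their genes called. Over all genes the share was 3.09%. Of 32 genes of glycolysis and the pentose phosphate pathway 3 were higher and 2 lower (median 0.20). Pygl and Hk1 fell, whereas Prps1, which makes the ribose precursor of nucleotides, was at 7.08 and 6.30 against 8.69 and 8.92, Pgd, of the oxidative pentose phosphate pathway, rose by 1.07 and Tkt, of its other branch, by 0.48. Without control PGCLC 2 the decreases of Pygl and Hk1 were called and no increase was. Of 41 genes of lipid synthesis 5 were lower and 3 higher (median −0.08). Gpat3, which starts triglyceride synthesis, was at 6.28 and 6.67 against 2.12 and 2.38 (difference −4.23, SE 0.28, adjusted p = 0.000955, limma), and Chdh, which oxidizes choline to betaine, at 6.84 and 7.75 against 2.54 and 2.43 (difference −4.81, SE 0.28, adjusted p = 0.000631, limma). These 2 genes and Cerk were called with any array left out. Plin3, of lipid droplets, rose by 2.13.

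Of 38 genes of fatty acid oxidation and the peroxisome 5 were lower and 2 higher (median −0.07). The carnitine carrier gene Slc25a20 was at 9.60 and 9.06 against 7.85 and 7.47, the peroxisomal enzyme gene Ehhadh fell by 1.92, Hsdl1 by 1.76, and Gstk1 was at 6.41 and 6.96 against 4.22 and 3.74. Among 42 glutathione and redox enzyme genes 4 were lower and 5 higher (median 0.17). Gstm3, a glutathione transferase gene, was at 7.92 and 8.12 against 5.71 and 5.21, whereas the carbonyl reductase gene Cbr3 was at 5.01 and 4.26 against 9.32 and 9.17 (difference 4.61, SE 0.28, adjusted p = 0.000762, limma). Srxn1, which repairs oxidized peroxiredoxins, rose by 1.77, but the brightest probe set designed for this gene alone gave −0.09. Of 30 genes of one-carbon and amino acid metabolism the cystathionine lyase gene Cth (8.68 and 8.41 against 10.01 and 10.52) and the glutamine synthetase gene Glul (8.11 and 8.11 against 9.24 and 9.72) were higher and Chdh and Kyat1 (−1.29) lower.

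Carriers of amino acids and metals differed as well. Of 31 amino acid transporter genes 4 were higher and 2 lower (median −0.04). Slc6a15 rose by 3.59, the creatine carrier gene Slc6a8 by 2.02 and Slc7a3, a carrier of basic amino acids, was at 8.31 and 8.35 against 9.89 and 10.49. Slc7a9 and Slc7a6 (−1.17), both of the basic amino acid exchangers, were lower. Of 24 metal ion transporter and carbonic anhydrase genes 4 were lower and 1 higher (median −0.07). The zinc carrier gene Slc30a2 was at 6.64 and 6.61 against 4.31 and 3.59 and its relative Slc30a1 fell by 1.57. The carbonic anhydrase gene Car12 was at 5.28 and 5.84 against 3.05 and 2.87 and was called with any array left out, while Car2 was at 8.36 and 7.6 against 10.15 and 10.35. The genes for 2 enzymes of the same reaction therefore differed in direction.

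**Figure D5:**
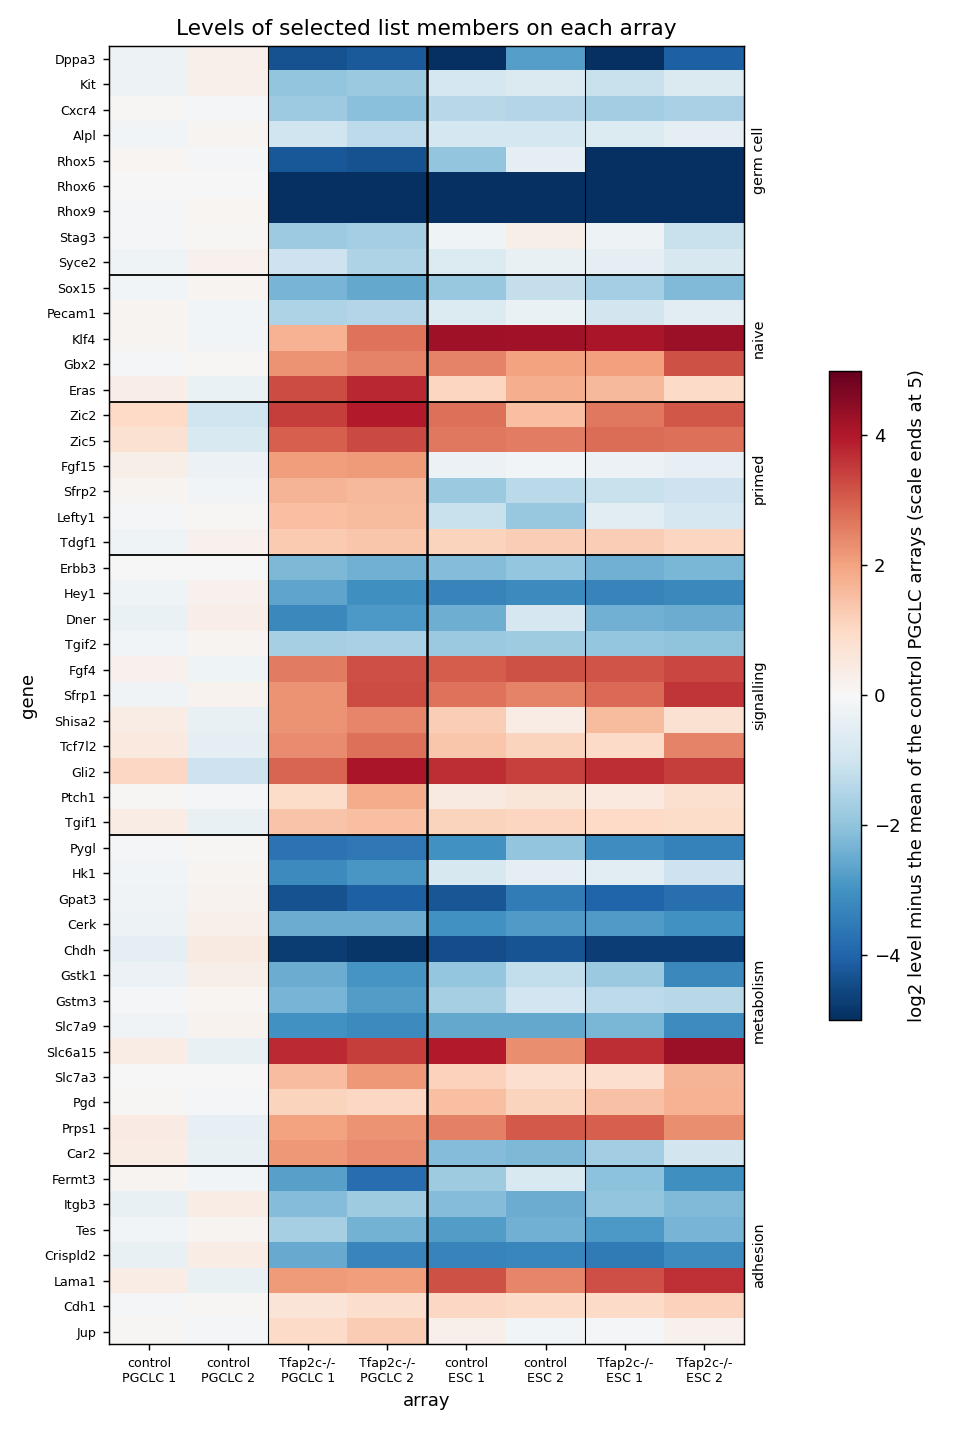
Log2 level of selected list members (y axis, grouped by role) on each array (x axis) minus the mean of the 2 control PGCLC arrays, with the colour scale ending at 5. Both Tfap2c-/- PGCLC columns differ from the control PGCLC columns in the same direction for every gene drawn, and Rhox6 and Rhox9 lie beyond the end of the scale in these and in all ESC columns.

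Genes of adhesion, matrix and cytoskeleton were called in both directions. The share called ran from 8.33% (junctions and keratins) to 26.5% (integrins and focal adhesion), against 3.09% of all genes. Of 34 integrin and focal adhesion genes 6 were lower and 3 higher (median 0.20). Besides Fermt3 these were the integrin beta 3 gene Itgb3 (4.21 and 4.96 against 2.41 and 2.83), the integrin alpha 1 gene Itga1 (−1.83), Tes (7.30 and 7.55 against 5.77 and 5.06), the talin gene Tln2 (−0.81) and Kank1 (−1.55), while the adaptor gene Bcar3 was higher (5.79 and 4.40 against 7.41 and 7.20). The list had 0 genes called lower, 1 called higher and a median of 0.02 without control PGCLC 2, and none of its 9 calls was made in all fits that left out 1 array. Among 39 basement membrane and matrix genes 6 were higher and 3 lower, with a median of 0.59. The laminin gene Lama1 was at 4.24 and 3.53 against 6.03 and 5.95, Coch rose by 2.23 and the nidogen gene Nid1 by 2.10, whereas Crispld2 was at 7.25 and 8.02 against 5.12 and 4.34 and Npnt, which encodes an integrin ligand of the kidney, at 5.12 and 6.17 against 3.94 and 2.87. Without control PGCLC 2 no matrix gene was called and the median was 0.26. Of 43 actin and motor genes 7 were higher and 2 lower (median 0.14), and without control PGCLC 2 1 was higher and 1 lower. Afap1, which links actin filaments, was at 8.05 and 8.29 against 5.44 and 5.02 and the nucleator gene Cobl at 5.30 and 5.06 against 7.43 and 7.81, and both were called with any array left out. Dmtn rose by 2.00 and Actn2, the actinin of muscle, fell by 1.91. Among 36 junction and keratin genes the E-cadherin gene Cdh1 (9.42 and 9.54 against 10.12 and 10.34) and the plakoglobin gene Jup (1.11) were higher and the RNA-binding protein gene Rbm47 was lower (−1.96).

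Most lists of other tissues also had a share of calls above the 3.09% of all genes, namely 21.7% for trophoblast, 15% for endothelium, 14.6% for neural genes, 13.6% for endoderm, 8.89% for axon guidance, 8.0% for blood and 3.23% for primitive streak and mesoderm, and 0% for fibroblasts. Among 23 trophoblast genes 5 were lower, Rhox6 and Rhox9 among them, with Nrk, Gata2 (7.21 and 7.63 against 5.62 and 5.47) and Sfmbt2. These genes are also expressed outside trophoblast, and the median of the list was −0.10. Gata2 was also the 1 of 31 primitive streak and mesoderm genes that was called. Of 41 neural and neuronal genes 6 were higher and 0 lower (median 0.16). Stmn2, which encodes a stathmin of neurons, was at 5.84 and 4.80 against 9.22 and 9.15, Gpm6b rose by 2.16 and Mllt11 by 2.03, and Nefl was described above. Stmn2, Nefl and Mllt11 were at 6.66 to 10.65 on all ESC arrays, and the neural markers used to check the cell type were not called. Of 22 endoderm genes Lrp2, Trh and Spink1 were higher. The lists of blood (25 genes, Laptm5 higher and Fermt3 lower), endothelium (20 genes, Notch4 higher, Pecam1 and Cldn5 lower, the latter at 6.50 and 6.32 against 4.61 and 3.94) and axon guidance (45 genes, 3 higher and 1 lower) had calls in both directions. No gene of the endoderm, endothelium or axon guidance list was called without control PGCLC 2, and 2 of the neural and 3 of the trophoblast list were. In axon guidance the ephrin gene Efna1 was at 6.48 and 6.27 against 4.5 and 3.55, the receptor gene Epha2 rose by 1.53, Sema4a by 1.65 and Ntn1 by 0.96.

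Of 40 interferon, MHC class I and NF-kB genes 4 were lower and 1 higher (12.5% called, against 3.09% of all genes, median 0.03). The MHC class I gene H2-Bl was at 8.34 and 8.13 against 4.62 and 3.53, the NF-kB regulator gene Nfkbiz at 7.41 and 7.84 against 4.83 and 4.51, and the antiviral gene Zc3hav1 fell by 1.4. Of 34 stress response genes (5.88% called) Hspb8 was higher and Ier3 lower (−1.67). Of 41 imprinted genes 3 were higher and 1 lower (9.76% called, median 0.06), namely Cobl, Ddc (1.33), Calcr (0.96) and Sfmbt2. Grb10, an imprinted adaptor of growth factor receptors, had the largest difference of all genes that were not called (4.27, adjusted p = 0.284, limma). It was at 3.56 and 8.27 in the 2 control PGCLC arrays and at 10.13 and 10.23 in Tfap2c-/- PGCLCs, so that the difference was 1.91 without control PGCLC 1 and 6.63 without control PGCLC 2. Ebf1, at 3.62 and 1.87 against 6.04 and 6.32, and Rgcc, at 6.78 and 5.23 against 3.79 and 2.84, were also large and not called (adjusted p = 0.0573 and 0.0789, limma).

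Several lists had 0 calls in limma. These were 51 genes of the mitochondrial respiratory chain (median −0.03, 7 genes at an unadjusted p under 0.05), 32 ribosomal protein genes (−0.03, 2 genes), 21 cholesterol synthesis genes (−0.18, 3 genes), 29 Hox genes (0.01, 3 genes), 16 fibroblast genes (0.22, 3 genes) and the 5 AP-2 genes (−0.09, 1 gene). Besides that of Tfap2c, large differences among them were those of Cox7a1 (−0.57), Rps25 (0.69), the mevalonate pathway gene Mvd (−1.01), Hoxb1 (1.04), Hoxd8 (−1.04) and Acta2 (0.80), with adjusted p from 0.0785 for Mvd to 0.430 for Cox7a1. Tfap2a, another AP-2 gene, was at 5.01 and 4.17 against 5.21 and 4.85. Among 27 genes of the tricarboxylic acid cycle Idh1 rose by 0.74.

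Called genes lay next to each other in places. The genes were put in the order of the RefSeq annotation of GRCm38.p6, in which 18142 of the tested genes were placed. Of the genes called lower 42 lay in 19 runs of neighbours called lower, and 18 of those called higher in 9 runs. As 1.80% of all genes were called lower and 1.29% higher, some runs arise without any link. The number of runs to be expected was not worked out. The longest run held Gm9, Rhox5, Rhox6 and Rhox9 on the X chromosome. On chromosome 7 lay the runs of Cpeb1, Ap3b2 and BC048679 and of Cep89, Slc7a9 and Tdrd12, which fell, and the pair Fgf4 and Fgf15, which rose. Il17rb lay beside Chdh and Ak4 beside Dnajc6.

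TFAP2C is known to bind the palindrome GCCNNNGGC, and this motif was searched in the promoter sequences, which run from 250 bases before a transcript start to 50 bases after it. The palindrome reads the same on both strands, and overlapping matches were counted. RefSeq promoters of GRCm38.p6 were given for 14452 of the genes tested, 263 of those called lower and 178 of those called higher. A match in at least 1 listed promoter was found for 33.5% of the lower and 30.3% of the higher genes, against 25.4% of all genes and 29.3% of genes with a mean level above 4. The form with 4 bases between the arms, GCCNNNNGGC, was found for 35.4% and 30.9%, against 23.6% and 28%. Called genes had more listed promoters, and so more windows in which a match can occur, with a mean of 1.37 per lower and 1.38 per higher gene, against 1.25 over all genes and 1.28 over genes with a mean above 4. The promoters of called genes also held more CpG pairs, with a median of 22 for lower and 22.5 for higher genes, against 18 over all genes and 23 over genes with a mean above 4. Of the 25 largest decreases 17 had a promoter in the table and 4 of these a match, and of the 25 largest increases 19 and 3. The windows below, all upstream of a listed start and printed in the direction of the transcript, show the match in capitals for 3 genes that fell and 1 that rose. They are Kctd15 (chr7:34655643-34655701, minus strand), Ttyh2 (chr11:114675401-114675459, plus strand), Chdh (chr14:30008773-30008831, plus strand) and Lrp2 (chr2:69586030-69586072, minus strand). A match is a description of the sequence and does not say that TFAP2C binds there.
Kctd15: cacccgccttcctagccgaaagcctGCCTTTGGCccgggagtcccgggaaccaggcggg
Ttyh2: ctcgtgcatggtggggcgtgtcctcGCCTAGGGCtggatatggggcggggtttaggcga
Chdh: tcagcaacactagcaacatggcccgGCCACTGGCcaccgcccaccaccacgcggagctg
Lrp2: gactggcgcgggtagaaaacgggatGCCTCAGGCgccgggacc

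The study tested TFAP2C binding at 10 genes by chromatin immunoprecipitation, choosing them from its deregulated genes, so that their direction here is not independent evidence. It reported enrichment at all 10. Of the 9 measured here Fgf4, Sfrp1 and Klf4 were higher and Kit was lower, and Cdk6, Dnmt3l, Dmrt1, Cdkn1a and Dnmt3b were not called. All 9 had an unadjusted p under 0.05 in limma. By quantitative RT-PCR of PGCLCs the study found Dmrt1 lower and Dnmt3l and Dnmt3b higher without Tfap2c, the directions of the differences here. For Kit and Sfrp1, one of each direction, the tested stretch lies in the first intron, and the study's primers for it, forward then reverse, were as follows.
Kit forward: gtttggtgatgcttttgtgc
Kit reverse: cacgcgcaacttttaacaaa
Sfrp1 forward: gtagagggggaaagctcagg
Sfrp1 reverse: agtacctggagcgggagaag

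The genes called in PGCLCs differed less between the genotypes in ESCs, which is a description, since their PGCLC difference selected them. The median ESC difference was −0.11 among the genes called lower in PGCLCs and 0.12 among those called higher, against −1.30 and 1.46 in PGCLCs, and these comparisons share no arrays. The ESC difference had the same sign for 229 of the 327 lower genes (70.0%) and 174 of the 235 higher genes (74.0%), but exceeded 1 in that direction for 9 and 1. Over all genes 49.6% had a positive ESC difference. The test of the difference between the 2 effects called 27 genes (0.148% of all), of which 21 were among the genes lower and 6 among those higher in Tfap2c-/- PGCLCs. For Hk1, for example, the difference was −3.05 in PGCLCs and −0.16 in ESCs (adjusted p of the difference 0.0242, limma). For Kit the corresponding values were −1.91 and −0.11, and the difference between them did not pass (adjusted p = 0.0847, limma).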

How the data were processed

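RNA of 8 mouse samples was hybridised to Affymetrix mouse genome expression arrays. The deposited values are log2 expression levels that the authors had normalized across arrays, with RMA according to the methods and GCRMA according to the submitters' processing notes, and without a version in the sources used here. Background correction and summary into probe sets were taken as made, and differences near the bottom of the scale may be compressed. Of 45101 probe sets 34945 name 1 gene of the annotation, covering 18193 genes, 932 name several genes, 9160 are not listed and 64 are controls. Each gene was represented by its probe set with the highest mean over 8 arrays. The 4 group means were fitted with limma 3.58.1 in R 4.3.3 (lmFit, eBayes with a trend, 4 residual and 3.67 prior degrees of freedom). Tests were two-sided, p-values of all genes were adjusted together (Benjamini-Hochberg), and the threshold was 0.05. Tables and plots were made with Python 3.11.15, pandas 2.3.3, NumPy 2.4.6 and Matplotlib 3.10.9. The fit was tested on simulated data. With 2 arrays per group their number limits the precision.

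The comparison, the 49 gene lists and the genes to be described were chosen with earlier results of these data known, so that a list's share of calls is a description. Named were the 25 largest changes each way among called genes whose arrays do not overlap (ranks 11 to 25 in detail), the 5 largest differences not called, up to 4 called members of each list with the largest difference or the 2 largest where none was called, Tfap2c and the genes the study tested by chromatin immunoprecipitation. Other genes were named after their values were seen, to complete a count or a family. No value column was left out. Alternatives were other probe set rules, normalizations, variance models, a replicate block and each array left out.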

Additional observations from a re-analysis of the deposited data

Results flagged for a closer look

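For 22 of the genes named by the rule, the change from control to Tfap2c-/- was not the same in PGCLCs as in ESCs by the test of that difference (limma, adjusted p from 0.00391 for Rhox9 to 0.0498 for Rassf5). The values that follow are the log2 difference in PGCLCs minus that in ESCs. Among homeobox genes and germ cell genes it was −5.25 for Rhox6, −4.98 for Rhox9 and −1.70 for Cxcr4. In metabolism it was −4.47 for Chdh, −4.21 for Gpat3, −2.89 for Hk1 and −2.49 for Cerk, and 4.06 for Cbr3. In signalling and adhesion it was −4.29 for Plcd1, −3.34 for Adgrg6, −2.81 for Hey1, −2.24 for Rassf5 and −2.05 for Erbb3, and 2.74 for Fgf4. For cytoskeletal and neuronal genes it was −2.95 for Afap1, 2.40 for Cobl and 3.92 for Stmn2. The others were BC048679 (−4.86), Calcoco2 (−3.30), Ttyh2 (−2.94), Aifm3 (−2.27) and Laptm5 (3.59). Leaving out 1 array put the number of genes that pass this test, 27 with all arrays, between 1 and 56.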

How the results depend on the processing

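No named gene changed direction under another normalization. The variance models and the replicate block cannot change a difference between group means. With the _s_at and _x_at probe sets, which can hybridize to several transcripts, left out, the differences of Laptm5 (−0.075), Srxn1 (−0.091) and Acta2 (−0.22) turned. Chdh, Eras, Dnmt3l and Jup each rest on 1 probe set of this kind, so that this setting could not test them. That of Col1a1 ranged from −0.27 without control PGCLC 2 to 1.66 without control PGCLC 1. Medians of lists moved by less than the spread between arrays in 750 of 784 recalculations. Part of these could not move them. Leaving out an ESC array, fitting the PGCLC arrays alone, weighting the arrays and the replicate block left the PGCLC differences unchanged. The 562 calls became 187 with the 4 PGCLC arrays alone, 912 with a crossed replicate block (the numbers of the control ESCs exchanged, chosen after seeing the data) and 87 to 609 with 1 array left out. A replicate block gave 556 calls, 485 of them shared, and 22 interaction calls in place of 27. The correlation of same-numbered samples' deviations from their group means was highest, at 0.392, between the control and Tfap2c-/- PGCLCs compared here, but was −0.333 between the 2 ESC groups. The study profiled 2 lines of each genotype. As the labels tie the numbers to no shared line or batch, the numbers were not taken to pair the samples. Genes differing between PGCLCs and ESCs numbered 42 with the crossed replicate block and 1 to 56 with 1 array left out. Genes past 1.5 by size numbered 236 with the mean of probe sets, and 297 to 544 with 1 array left out, 882 differed by more than 1 and 166 by more than 2. With 2 arrays per group a gene that was not called may still differ.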

Other observations

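Genes of the Y chromosome differed between the 2 control arrays of each cell type. Eif2s3y, a translation factor gene, was at 8.79 in control PGCLC 1 and 5.54 in control PGCLC 2, at 8.93 in control ESC 1 and 5.87 in control ESC 2, and at 7.45 to 8.94 on the Tfap2c-/- arrays. Uty, a relative of a histone demethylase gene, was at 6.08 and 1.81 in the control PGCLCs, at 6.78 and 3.67 in the control ESCs, at 5.80 and 3.42 in the Tfap2c-/- PGCLCs and at 6.04 and 6.11 in the Tfap2c-/- ESCs. Uba1y was at 7.18 and 2.84 in the control PGCLCs and at 5.61 and 3.31 in the Tfap2c-/- PGCLCs. In each of these pairs of control and of Tfap2c-/- PGCLC arrays the sample numbered 2 was the lower. Kdm5d, Usp9y and Zfy2 were at 2.03 to 2.95 on all 8 arrays, and Xist was at 4.47 to 6.53. Grb10 was split the other way between the control arrays, at 3.56 and 8.27 in PGCLCs and at 4.31 and 9.02 in ESCs. These genes were chosen after their values were seen.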
